A study of Mus musculus with 15 samples.

Results

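Imprinted genes were followed in Crym-EGFP sorted cells of the newborn mouse kidney. The set holds 38 listed genes of the well known mouse imprinted regions, 20 of them expressed from the paternal copy, 16 from the maternal copy and 2 (Gnas and Dio3os) put in neither class. A listed gene counted as measured where the platform table named it as the single symbol of a probe set, which held for 30 of the 38 out of 19938 genes on the array. Of these 30, 23 passed the filter on dim genes and were tested (14 paternal, 9 maternal), and 11885 genes were tested in all. The cells came from CD-1 mice that carry the transgene Tg(Crym-EGFP)82Gsat, in which sequence of the Crym gene on a bacterial artificial chromosome directs the green fluorescent protein, and every sample carries it. There were 15 samples, 3 on each of postnatal days 0 to 4 (P0 to P4), each a pool of about 4 kidneys. The labels call the 12 samples of the first 4 days cap mesenchyme (nephron progenitors around the ureteric bud tips) and the 3 samples from P4 renal vesicle (the epithelial vesicle into which those progenitors turn). The series' own design text names cap mesenchyme for each day, so the compartment at P4 rests on the sample label, and at P4 compartment and age cannot be told apart. Whether pools of equal age were taken from different litters is not in the labels. The p-values set differences between days against the spread among these pools, which may be smaller than the spread between litters. No source used here gives the gate of the sort, and in such bulk samples fewer cells of a type and less RNA per cell cannot be told apart.

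A genomic imprint is a methylation mark set in the germ line of a single parent, which keeps the copies of a gene inherited from mother and father in different states of activity. Imprinted genes lie in clusters governed by a shared control region, and many act on fetal growth: paternally expressed genes such as Igf2 tend to promote it, and maternally expressed genes such as Igf2r, Cdkn1c and Grb10 tend to restrain it. Many of them are strongly expressed in embryonic tissues and decline after birth. The arrays measured the total transcript and did not separate the parental copies, so the values speak of level and not of which copy was active.

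The members that fell over P0 to P3 were Mest, Peg3, Plagl1 and Zim1, and their promoter windows are shown because imprinted control regions often lie at such promoters. They are RefSeq promoters on GRCm38.p6, 250 bases before to 50 after an annotated start, written 5′ to 3′ in the direction of transcription. For Mest, which has 3 listed windows, the one shown was chosen after its letters were counted, as 1 of a nearly identical pair with the most CpG dinucleotides. It is chr6:30737800-30738099 (plus strand), for Plagl1 chr10:13090582-13090881 (plus strand), for Peg3 chr7:6730370-6730669 (minus strand) and for Zim1 chr7:6696383-6696682 (minus strand). Capitals mark the hexamer TGCCGC, read on either strand, so that GCGGCA is the same motif on the other strand. This is the sequence that ZFP57, a zinc finger protein that keeps methylation at imprinted control regions, binds when it is methylated.
Mest: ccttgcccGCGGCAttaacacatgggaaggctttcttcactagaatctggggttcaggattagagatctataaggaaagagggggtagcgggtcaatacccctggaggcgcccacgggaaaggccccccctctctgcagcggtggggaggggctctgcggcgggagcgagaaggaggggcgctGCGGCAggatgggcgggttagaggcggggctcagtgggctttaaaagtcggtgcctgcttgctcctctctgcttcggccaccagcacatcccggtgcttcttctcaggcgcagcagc
Plagl1: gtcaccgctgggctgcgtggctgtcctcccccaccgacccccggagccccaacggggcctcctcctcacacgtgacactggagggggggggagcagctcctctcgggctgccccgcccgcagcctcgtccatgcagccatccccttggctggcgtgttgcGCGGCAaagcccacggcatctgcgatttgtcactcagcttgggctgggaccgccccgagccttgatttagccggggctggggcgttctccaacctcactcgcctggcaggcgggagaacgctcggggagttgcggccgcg
Peg3: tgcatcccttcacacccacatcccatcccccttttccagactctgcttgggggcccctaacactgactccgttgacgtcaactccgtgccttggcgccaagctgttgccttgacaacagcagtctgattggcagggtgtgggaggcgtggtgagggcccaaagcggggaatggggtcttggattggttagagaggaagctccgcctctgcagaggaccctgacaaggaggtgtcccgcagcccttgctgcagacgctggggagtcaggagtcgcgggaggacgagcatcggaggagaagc
Zim1: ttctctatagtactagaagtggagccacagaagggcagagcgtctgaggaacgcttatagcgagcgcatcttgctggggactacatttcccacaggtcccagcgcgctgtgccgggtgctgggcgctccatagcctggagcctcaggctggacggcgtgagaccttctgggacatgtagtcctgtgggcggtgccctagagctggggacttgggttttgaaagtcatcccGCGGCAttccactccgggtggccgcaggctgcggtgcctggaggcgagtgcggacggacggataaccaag
The Mest window shown held 2 matches, those of Plagl1 and Zim1 1 each and that of Peg3 0. The third Mest window, chr6:30733256-30733555, held 0 matches and 8 CpG dinucleotides. The windows shown held 17 CpG dinucleotides in Mest, 26 in Plagl1, 13 in Peg3 and 20 in Zim1, against a median of 7 over the 32851 promoters of the same length. Promoters were found for 31 of the 38 members, often with several starts to a gene, and 11 of these 51 windows (21.6%) held the hexamer, against 3813 of the 32851 (11.6%). Several windows of a gene overlap, and the windows of Peg3 and its divergent neighbour Usp29 overlap too. The hexamer itself holds a CpG, and the 51 windows had a median of 12 CpG dinucleotides, against 7 over all promoters. A match is a description of the letters in a window, and enrichment was not tested. Promoters of Peg10, Sgce, Cdkn1c, Kcnq1, Rtl1, H19 and Impact are not shown.

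All values below are deposited log2 values from whole-transcript arrays, on which the 15 sample medians lay between 6.80 and 6.92. A gene was tested where at least 3 arrays exceeded 6.86, the median of all values. The first replicates stood apart from replicates 2 and 3 on every day: the interquartile range of an array was 2.14 to 2.27 in the 5 first replicates and 2.52 to 2.77 in the 10 others, and limma called 5048 of 11885 genes (42.5%) between these sets. Among the imprinted genes 13 of 23 (56.5%) were called. Rian, a noncoding RNA of the Dlk1-Dio3 cluster, had a mean of 7.38 in the first replicates and 5.56 in the others. Nnat was 0.82 lower, Grb10 0.61 lower and Peg3 0.57 lower in the first replicates, while Mkrn3 was 0.68 and Ndn 0.49 higher. Each day holds 1 sample of the first set and 2 of the other. What separates the sets is not stated in the labels, so the members' calls are given also with the set as a block in the fit or within replicates 2 and 3, and calls of other lists where the block changes them.

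**Figure D1:**
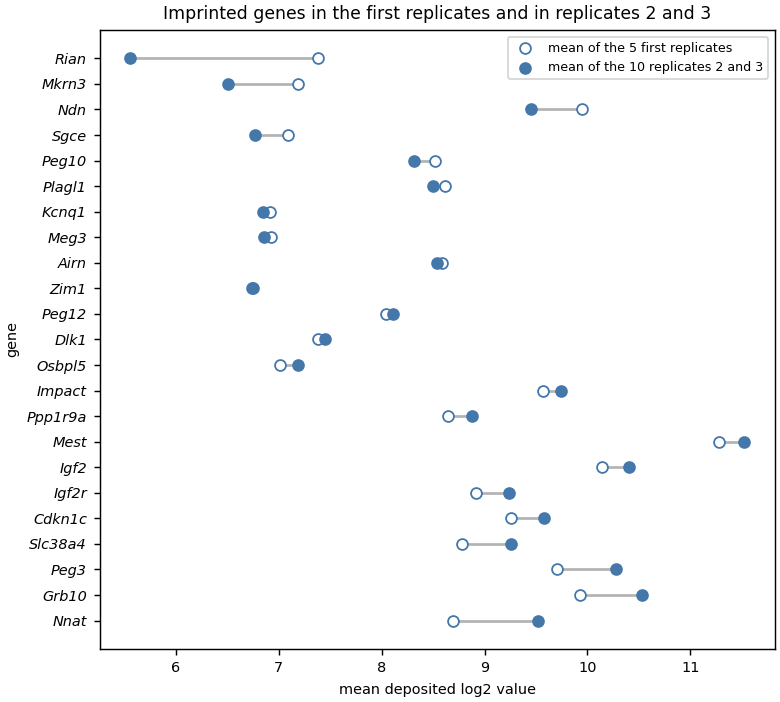
Mean deposited log2 value (x axis) of the 23 tested imprinted genes (y axis) in the 5 first replicates (open circles) and in the 10 replicates 2 and 3 (filled circles), ordered by their difference. Rian stands out, with means of 7.38 and 5.56, and Nnat, Grb10 and Peg3 lie lower in the first replicates.

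Over P0 to P3, within the samples labelled cap mesenchyme, 4 imprinted genes fell and 0 rose. They were the paternally expressed Mest, Peg3 and Plagl1 and the maternally expressed Zim1. Of the 23 tested members 17.4% were thus called by limma in the slope over these days, against 3.13% of all genes tested (1.48% falling and 1.65% rising). Zim1 passed the filter only on the days where it was high, so that its being tested is tied to its difference. It is set aside here, as is Mkrn3 for the same reason. Without both, 3 of 21 members were called. Of the 23 members 10, Zim1 among them, had an unadjusted p under 0.05 in the slope, a count not comparable with the adjusted share of all genes. In the test of any difference among the 5 days limma called 4 members (17.4%), Mest, Peg10, Plagl1 and Zim1, against 5.37% of all genes. With Zim1 and Mkrn3 set aside these were 3 of 21 (14.3%).

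Mest, the mesoderm-specific transcript, encodes a protein related to hydrolases and is a classical marker of growing embryonic mesoderm. Its values were 11.72, 12.02 and 11.89 at P0, 11.80, 12.03 and 12.07 at P1, 11.40, 11.63 and 11.76 at P2, 10.74, 11.17 and 10.90 at P3, and 10.71, 10.99 and 10.76 at P4. The 6 samples of P3 and P4 all lay below every sample of the 3 earlier days. The level fell by 0.32 per day on the log2 scale (SE 0.05, limma adjusted p = 0.00158), and the P3 mean was 1.92-fold under that of P0. The slope was -0.33 in the first replicates alone and -0.31 within replicates 2 and 3 (adjusted p = 0.00431), and no single sample decided the call.

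Plagl1, also known as Zac1, encodes a zinc finger transcription factor that restrains proliferation and regulates other imprinted genes. It measured 8.93, 9.06 and 8.70 at P0, 8.86, 8.60 and 8.78 at P1, 8.57, 8.41 and 8.57 at P2, 8.16, 8.21 and 8.02 at P3, and 8.53, 8.26 and 8.35 at P4. The 3 samples of P3 were the lowest of all 15, and those of P4 lay between P3 and P0. The slope was -0.25 per day (SE 0.04, adjusted p = 0.00289), a 1.70-fold difference between the P3 and P0 means. It was -0.26 in the first replicates and -0.25 within replicates 2 and 3 (adjusted p = 0.0214).

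Peg3 and Zim1 are neighbours on chromosome 7, where Peg3, a zinc finger gene, is paternally expressed and Zim1, another zinc finger gene, is maternally expressed. Peg3 measured 10.24, 10.61 and 10.79 at P0, 10.19, 10.84 and 10.67 at P1, 9.50, 10.25 and 10.27 at P2, 9.17, 9.88 and 9.78 at P3, and 9.40, 9.81 and 9.85 at P4. The first replicate was the lowest sample on each of the 5 days, and within each set of replicates the samples of P3 and P4 lay below those of P0 and P1. Peg3 fell by 0.34 per day (SE 0.08, adjusted p = 0.0327; with the set of replicates as a block, adjusted p = 1.32e-05). The call was lost when replicate 2 or 3 of P0, replicate 2 or 3 of P1 or replicate 1 or 3 of P3 was left out, with an adjusted p of up to 0.14. Within replicates 2 and 3 the slope was -0.31 (adjusted p = 0.00254).

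Zim1 showed the steepest slope of the tested members. Its values were 7.99, 7.95 and 7.81 at P0, 6.69, 7.51 and 7.74 at P1, 6.44, 6.51 and 6.78 at P2, 6.14, 6.25 and 5.43 at P3, and 6.49, 5.94 and 5.43 at P4. Every P0 sample lay above every later one, and every P3 sample lay below every P2 sample. Zim1 exceeded the filter value of 6.86 in only 5 arrays, the 3 of P0 and replicates 2 and 3 of P1, so that it was tested only through the days on which it was high, and its differences are given as a description. The slope was -0.67 per day (SE 0.09), -0.58 in the first replicates alone and -0.71 within replicates 2 and 3. The P3 mean was 3.93-fold under the P0 mean, with all 3 samples of P3 under the filter value. Usp29, the third gene of this cluster that was measured, lay between 5.39 and 5.83 in all 15 samples and was not tested.

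**Figure D2:**
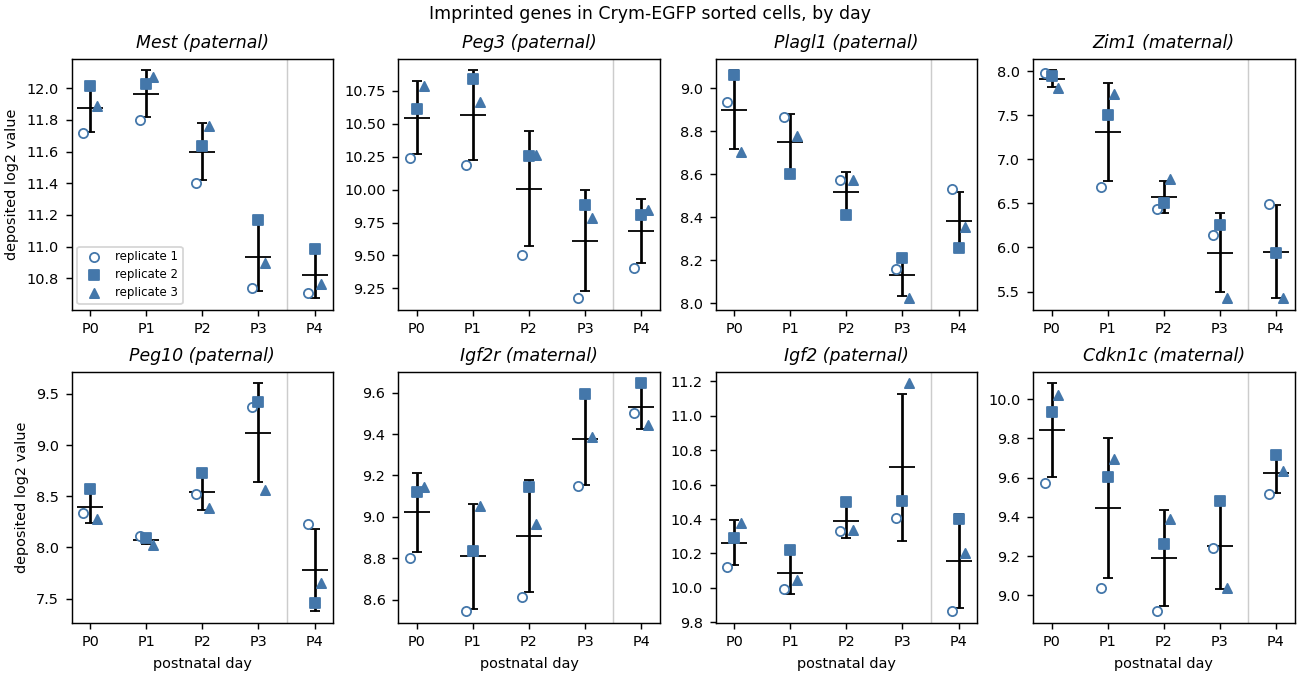
Deposited log2 values (y axis) of 8 imprinted genes by postnatal day (x axis), with an open circle for replicate 1 and filled squares and triangles for replicates 2 and 3. The horizontal dash and bars give the mean and SD of the 3 samples of a day, and the grey line separates P4, labelled renal vesicle, from the days labelled cap mesenchyme. Mest, Peg3, Plagl1 and Zim1 step down from P0 to P3, and Peg10 peaks at P3 and is lowest at P4.

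With the set of replicates as a block, 7 of 23 members were called in the slope, 6 falling and 1 rising, against 7.72% of all genes (3.9% falling, 3.82% rising). With Zim1 and Mkrn3 set aside there were 6 of 21, 5 falling and 1 rising. The added genes were Cdkn1c and Grb10, both falling, and Peg10, rising. With the replicate number as a block there were 8 of 23, Zim1 among them and Sgce falling too, against 8.49% of all genes. Cdkn1c encodes the cyclin-dependent kinase inhibitor p57, which lets progenitors leave the cell cycle. It measured 9.57, 9.93 and 10.02 at P0, 9.04, 9.60 and 9.70 at P1, 8.92, 9.26 and 9.39 at P2, 9.24, 9.48 and 9.04 at P3, and 9.52, 9.71 and 9.63 at P4. Its P4 samples lay above all samples of P2 and P3 and inside the range of P0 and P1. The slope was -0.20 per day (SE 0.06, adjusted p = 0.104, and 0.00766 with the set as a block), and it was called without replicate 1 of P1 and within replicates 2 and 3 (adjusted p = 0.0225). Grb10, an adaptor that dampens insulin and IGF receptor signalling, had a slope of -0.19 (adjusted p = 0.353, and 0.00289 with the block), with values from 9.65 to 10.91.

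At P4 against the mean of P0 to P3, Mest, Peg10 and Zim1 were lower and Igf2r was higher. These are 4 of 23 tested members (17.4%), against 5.73% of all genes tested (3.41% higher, 2.32% lower). At an unadjusted p under 0.05 there were 9 members, a count not comparable with these adjusted shares. Without P4 replicate 2, or without P4 replicate 3, only Mest was called (1 of 23). With Zim1 and Mkrn3 set aside, 3 of 21 were called with all samples. Mest was lower by 0.77 (SE 0.12, a 1.71-fold difference, adjusted p = 0.000599), and this call held without any single sample. Zim1, again as a description, differed by -0.98 (SE 0.23), by -0.32 in the first replicates and by -1.31 within replicates 2 and 3, and its call was lost without P4 replicate 2 or 3 (limma adjusted p up to 0.201). For both genes the P4 level was close to that of P3: P4 minus P3 was -0.11 (SE 0.15) for Mest and 0.01 (SE 0.29) for Zim1, each with an adjusted p of 1.

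Peg10 was highest at P3 and lowest at P4. It is a retrotransposon-derived gene that is essential in the placenta and shares its promoter region on chromosome 6 with the divergently transcribed Sgce. Peg10 measured 8.34, 8.57 and 8.28 at P0, 8.11, 8.10 and 8.02 at P1, 8.52, 8.73 and 8.38 at P2, 9.37, 9.42 and 8.56 at P3, and 8.23, 7.45 and 7.65 at P4. Replicates 1 and 2 of P3 were the highest of all samples, replicate 3 of P3 lay in the range of P0 and P2, and replicates 2 and 3 of P4 were the lowest of all. P4 was lower than P3 by 1.34 (SE 0.22, 2.53-fold, adjusted p = 0.00512) and lower than the mean of P0 to P3 by 0.76 (SE 0.18, 1.69-fold, adjusted p = 0.0187). The difference from P3 held without any single sample but had an adjusted p of 0.132 when only P3 and P4 entered the fit. The difference from P0 to P3 was lost without P4 replicate 2 or 3 (adjusted p up to 0.168). Over P0 to P3 Peg10 had a slope of 0.26 (SE 0.07, adjusted p = 0.0635, and 0.0177 with the set of replicates as a block). Peg10 was the single tested member called between P4 and P3 (4.35% of the 23, against 1.49% of all genes), and with the set of replicates as a block Slc38a4 joined it (2 of 23, against 3.35% of all genes). Sgce, which encodes epsilon-sarcoglycan, ranged from 6.21 to 7.45 and differed from P0 to P3 at P4 by -0.16 (adjusted p = 0.85).

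Igf2r encodes the mannose 6-phosphate receptor that takes up IGF2 for degradation. It measured 8.80, 9.12 and 9.14 at P0, 8.54, 8.83 and 9.05 at P1, 8.61, 9.15 and 8.96 at P2, 9.15, 9.59 and 9.39 at P3, and 9.50, 9.64 and 9.44 at P4. All 3 samples of P4 lay above every sample of P0 to P2 and overlapped those of P3. Igf2r was higher at P4 by 0.50 (SE 0.14, 1.42-fold, adjusted p = 0.0451; 0.00137 with the set of replicates as a block). The call was lost when 11 of the 15 samples were left out in turn (adjusted p up to 0.23) and within replicates 2 and 3, where the difference was 0.39 (adjusted p = 0.0896). Airn, the paternally expressed RNA transcribed against Igf2r that silences it on the paternal copy, overlaps the receptor gene. It ranged from 7.83 to 9.10 and its difference at P4 was 0.40 (SE 0.20, adjusted p = 0.402). No source used here says whether the probes separate the strands, so the level of Airn is uncertain.

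With the set of replicates as a block, 11 of 23 members were called at P4, 10 lower and Igf2r higher, against 11.5% of all genes (5.06% lower, 6.41% higher). The added ones, all lower, were Grb10, Impact, Mkrn3, Ndn, Peg12, Peg3 and Slc38a4. Mkrn3 exceeded the filter value only in the first replicates of P0 to P3, and without it and Zim1 the count was 9 of 21, 8 of them lower. Ndn (necdin, a MAGE family protein) measured 9.73, 9.14 and 9.00 at P4, the lowest value among the first replicates and the lowest values among replicates 2 and 3. Slc38a4, an amino acid transporter, showed the same order with 8.33, 8.81 and 8.63 at P4. Their differences were -0.41 (adjusted p = 0.283, and 0.00396 with the block) and -0.63 (adjusted p = 0.0701, and 0.00114). The difference of Peg3 was -0.50 (SE 0.20, adjusted p = 0.225, and 0.000549). Within replicates 2 and 3 alone, Mest, Ndn, Peg10, Peg3, Slc38a4 and Zim1 were called, each lower at P4 (5 of 21 with Zim1 and Mkrn3 set aside), against 6.27% of all genes (2.72% lower, 3.55% higher). Peg12, related to the Frat inhibitors of GSK3, Mkrn3, a ubiquitin ligase, and Impact, a regulator of translation, had adjusted p-values of 0.116, 0.382 and 0.117 with no block.

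**Figure D3:**
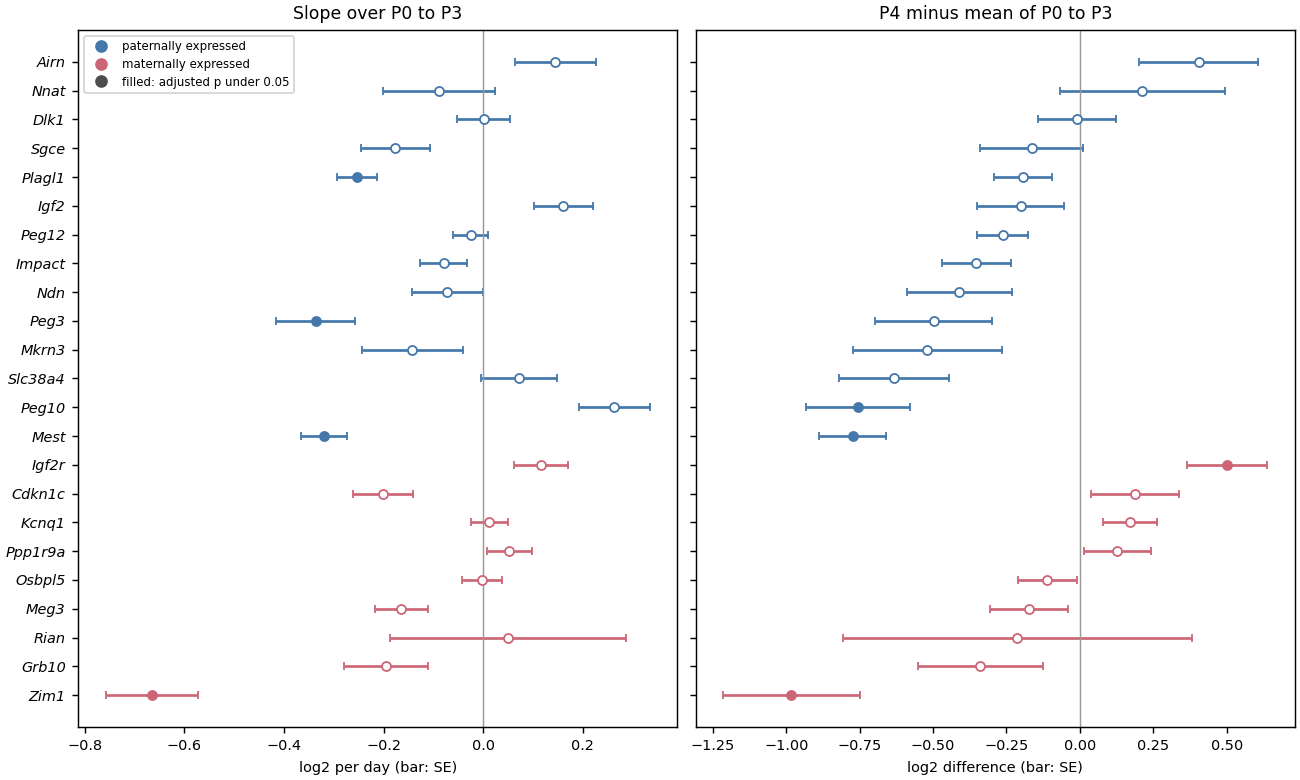
Log2 slope per day over P0 to P3 (left) and log2 difference of P4 from the mean of P0 to P3 (right) for the 23 tested imprinted genes, with bars for the SE of the fit with no block. Paternally expressed genes are blue, maternally expressed genes red, and filled points have a limma adjusted p under 0.05. At P4, 12 of 14 paternal genes, Mkrn3 among them, and 5 of 9 maternal genes, Zim1 among them, lie below 0.

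With no block, the single maternal gene called as falling was Zim1, the gene tested through its high days. In the slope, 3 of 14 paternal and 1 of 9 maternal genes fell, against 1.48% of all genes. Without Zim1 and Mkrn3 these were 3 of 13 and 0 of 8. At P4 2 paternal genes were lower, and of the maternal genes Igf2r was higher and Zim1 lower. Of all genes 2.32% were lower and 3.41% higher. Without Zim1 and Mkrn3, 2 of 13 paternal genes were lower at P4, and of 8 maternal genes 1 was higher and 0 lower. The median slope was -0.08 over the paternal and 0.00 over the maternal genes, against -0.01 over all genes tested. At P4 the median difference was -0.31 over the paternal genes, 12 of 14 below 0, and -0.11 over the maternal genes, 5 of 9 below 0, against 0.00 over all genes tested. Mkrn3 (-0.52) is among these 12 and Zim1 (-0.98) among these 5. As 4 maternal genes lay above 0, without Zim1 as many maternal genes lay above 0 as below it. The maternal median without Zim1 falls between -0.11 (Osbpl5) and 0.13 (Ppp1r9a). With Mkrn3 and Zim1 kept, paternal minus maternal was -0.20 in the medians at P4. In single samples, the paternal minus maternal median of gene-centred values varied within days with an SD of 0.14. That SD is not the spread of the -0.20, which compares means of several samples. The paternal minus maternal difference at P4 was -0.41 without P4 replicate 2 and -0.35 without P4 replicate 3. For the slope it was -0.07, and 0.09 without P3 replicate 1. These are descriptions of small sets that include genes tested only through their high samples, and the difference between the classes was not tested. With the set of replicates as a block, 8 of 14 paternal genes were lower at P4, and of the 9 maternal genes 2 were lower and 1 higher, against 5.06% of all genes lower and 6.41% higher. Without Mkrn3 and Zim1 these were 7 of 13 paternal genes lower and, of 8 maternal genes, 1 lower and 1 higher. Of oppositely imprinted neighbours, Peg3 and Zim1 both fell over P0 to P3, Zim1 as a description only, while Dlk1 and Meg3 passed no test.

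**Figure D4:**
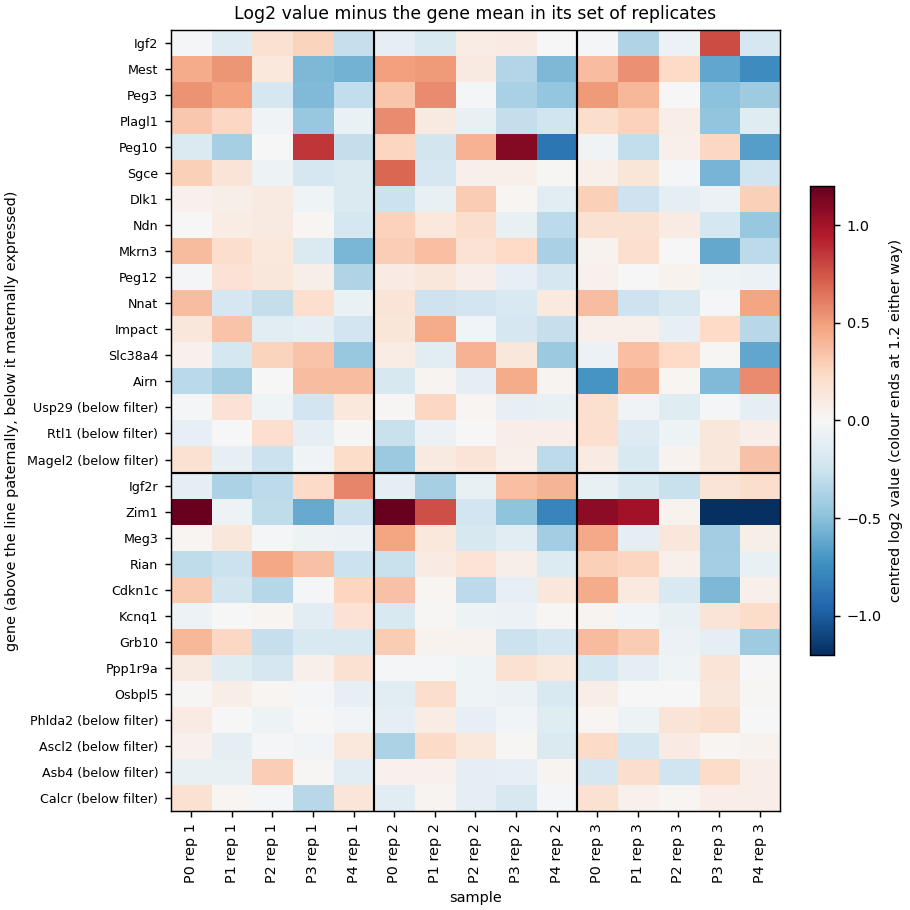
Deposited log2 value minus the mean of the gene in its set of replicates (the 5 first replicates, or the 10 replicates 2 and 3), for the 30 measured imprinted genes (rows) in the 15 samples (columns, by replicate number and day). Red is above and blue below that mean, vertical lines separate the replicate numbers, and the horizontal line separates paternally from maternally expressed genes. Mest, Peg3 and Zim1 go from red at P0 to blue at P3 in each of the 3 replicate numbers.

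Igf2, the fetal growth factor, passed no test. Its values were 10.12, 10.29 and 10.38 at P0, 9.99, 10.22 and 10.05 at P1, 10.33, 10.50 and 10.33 at P2, 10.41, 10.50 and 11.19 at P3, and 9.86, 10.40 and 10.21 at P4. Replicate 3 of P3 lay above all other samples, and the 3 samples of P3 lay above every sample of P0, P1 and P4 and overlapped those of P2. The slope was 0.16 per day (SE 0.06, limma adjusted p = 0.232, and 0.0516 with the set of replicates as a block). P4 differed from P0 to P3 by -0.20 (SE 0.15, adjusted p = 0.684). It differed from P3 by -0.54 (SE 0.19, adjusted p = 0.327, and 0.067 with the block). For its maternally expressed partner H19, a noncoding RNA, no probe set was named as a single symbol, and it was not analysed here.

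In the Dlk1-Dio3 cluster, Dlk1, a membrane protein related to Notch ligands, lay between 7.19 and 7.75 on all days with a P4 difference of -0.01 (SE 0.13, adjusted p = 0.995). The days overlapped throughout. Meg3, a noncoding RNA from the maternal copy, measured 6.94, 7.33 and 7.32 at P0 and 6.86, 6.73 and 6.44 at P3, so that all samples of P3 lay below those of P0. Its slope of -0.16 (SE 0.05) did not pass the test (adjusted p = 0.142), and it exceeded the filter value in 8 arrays. Rian passed the filter only through the 5 first replicates, 7.07 to 7.85, while replicates 2 and 3 lay between 5.15 and 5.84. Its slope was 0.05 (SE 0.24, adjusted p = 0.981). Rtl1, a retrotransposon-derived gene that overlaps the noncoding RNAs of the cluster, stayed at or below 6.66.

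Of the other tested members, Nnat (a membrane proteolipid) ranged from 8.41 to 9.99, and its P4 difference was 0.21 (adjusted p = 0.893). For any difference among days limma called Nnat with the set of replicates as a block (adjusted p = 0.0377), as it did 11.7% of all genes. Kcnq1 (a potassium channel), Osbpl5 (a lipid transfer protein) and Ppp1r9a (neurabin) were listed here as imprinted only in some tissues or stages. They differed at P4 by 0.17, -0.11 and 0.13, with limma adjusted p-values of 0.451, 0.799 and 0.788. Kcnq1 exceeded the filter value in 6 arrays, Sgce in 7 and Mkrn3 in 4. Below the filter were 7 members, the paternal Usp29, Rtl1 and Magel2 and the maternal Phlda2, Ascl2, Asb4 and Calcr. Their highest values lay between 5.78 for Calcr, the calcitonin receptor, and 6.81 for Magel2, a MAGE family gene. Mirg, Snrpn, Ube3a and Gnas shared their probe sets with other symbols and entered no comparison, and H19, Kcnq1ot1, Zrsr1 and Dio3os had no probe set named.

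Further imprinted genes were listed separately from the 38. Of 37 listed, 33 were measured and 21 tested. Over P0 to P3, Ddc (dopa decarboxylase) and Dcn (decorin, a matrix proteoglycan) fell by 0.23 and 0.35 per day (adjusted p = 0.0236 and 0.0313), and 0 rose. These were 2 of the 21, against 3.13% of all genes. At P4 limma called 0 of the 21, against 5.73% of all genes, with 3 at an unadjusted p under 0.05, and the median difference was 0.02. With the set of replicates as a block 3 of 21 were called at P4, Cobl and Gatm higher and Ddc lower, against 11.5% of all genes. In the slope Pon2 rose as well, which made 3 of 21, against 7.72% of all genes. Of 20 tested genes of imprint maintenance 1 was called in the slope, against 3.13% of all genes. This was Tet2, which oxidises methylated cytosine and fell by 0.24 per day (limma adjusted p = 0.0291). At P4 limma called 0 of the 20, and 0 also had an unadjusted p under 0.05. With the block Uhrf1, a partner of Dnmt1, rose over P0 to P3 (adjusted p = 0.0177), so that 2 of the 20 were called, against 7.72% of all genes. Dnmt1, the maintenance methyltransferase, differed at P4 by 0.16 (adjusted p = 0.587), and Zfp57 by -0.14 (adjusted p = 0.822). Of 10 tested genes around IGF2 signalling, Igfbp5, a secreted IGF binding protein, was lower at P4 by 1.29 (2.45-fold, adjusted p = 0.00691) and Irs1, an adaptor of the IGF and insulin receptors, by 0.77 (1.71-fold, adjusted p = 0.0239). These were 2 of the 10, against 5.73% of all genes. In the slope limma called 0 of these 10, with 2 at an unadjusted p under 0.05. With the set of replicates or the replicate number as a block it called 3, Igfbp4 rising and Igf2bp1 and Igf2bp3 falling (7.72% and 8.49% of all genes). Between P4 and P3 it called 0 with no block (3 at an unadjusted p under 0.05) and 3 with either block, Igfbp5 and Irs1 lower and Igf2bp1 higher. Of all genes 3.35% were called there with the set of replicates and 3.55% with the replicate number as a block. Igf1r, the receptor that transmits the IGF2 signal, differed at P4 by 0.11 (adjusted p = 0.94).

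Markers of the sorted cells moved along the same days. Of all genes 3.13% were called in the slope and 5.73% at P4 (7.72% and 11.5% with the set of replicates as a block). Of 8 cap mesenchyme markers 5 fell over P0 to P3 (7 with the set of replicates as a block) and 8 were lower at P4. Of 8 renal vesicle markers 5 rose over P0 to P3 and 6 were higher at P4 (6 and 7 with the block). The summed linear level of the cap mesenchyme markers was 9620 to 13539 at P0, 4925 to 5692 at P3 and 1642 to 1929 at P4, and that of the renal vesicle markers was 1743 to 2779, 5869 to 9858 and 6715 to 11247. Of 9 tested stroma markers, Foxd1, Pdgfra and Postn fell over P0 to P3 (Meis1 too with the block), Foxd1 and Meis1 were lower at P4, and the sum of all 10 was 3496 to 3879 at P0, 2131 to 2694 at P3 and 2334 to 2923 at P4. Of 9 tested G2/M genes 4 rose over P0 to P3 and 1 was higher at P4 (9 and 6 with the block), and their sum was 6790 to 7987 at P0, 4276 to 5576 at P1 and 9402 to 9905 at P3. Of 9 endothelial markers 1 passed the filter (sums of 700 to 839 over P0 to P3 and 766 to 885 at P4). Macrophage markers passed the filter in 2 of 7 and erythroid markers in 2 of the 2 measured, and limma called 0 of either in the slope or at P4 (1 macrophage gene at an unadjusted p under 0.05, in the slope). With the block Cd68, a macrophage marker, fell over P0 to P3. Of 4 tested ureteric bud markers Gata3 was higher at P4 (Krt18 too with the block), where the sum of all 7 was 953 to 1092, against 625 to 883 before. The part of these changes in the levels of the imprinted genes was not tested.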

How the data were processed

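The authors deposited 1 table of log2 values for 35557 probe sets in 15 samples, which the labels credit to Affymetrix Expression Console. RNA was amplified in a single round with the WT-Ovation Pico kit. No source used here gives its version, summarization or centring, and where dim values still hold background their differences would be understated. Values were used as deposited. The number of arrays limits the precision.

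The platform table gave 21789 probe sets 1 symbol, 1621 several and none to 12147. The probe set with the highest mean stood for each of the 19938 genes (999 had several, and each member had 1). Genes above log2 6.86 in at least 3 arrays were kept (11885). limma 3.58.1 in R 4.3.3 fitted a mean for each day over all 15 samples, with eBayes, two-sided tests and p-values adjusted by Benjamini-Hochberg over all genes that passed (threshold 0.05). The script was tested on simulated data. Contrasts were any difference among days, the least squares slope over P0 to P3, P4 against the mean of P0 to P3, and P4 against P3. Folds are 2 to the power of the log2 difference.

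Named are all members, and from each further list the genes called and a few with a central role. Members, lists and tests were chosen with earlier results of these data known. Marker sums add linear values (2 to the power of the deposited value) over all measured genes of a list.

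The first replicate of a day carries no number in its title and was taken as 1. Deviations of same-numbered samples from their day means correlated over 0.1 in every pair of the first 4 days (18 of 18, lowest 0.138). Those of P3 with P4 did so too (3 of 3, lowest 0.329), and over all 5 days 29 of 30 pairs (lowest 0.0782). The difference between the sets of replicates alone can give such correlations, so they do not show that the numbers pair the samples. The replicate number and the set of replicates (first, or 2 and 3) each served as a block in alternative fits. Alternatives were these blocks, replicates 2 and 3 alone, quantile or median normalization, other filters, the mean of probe sets, eBayes with trend and robust settings, only the days compared, each sample left out, and the first replicates alone. The last, and leaving out members dim in most arrays, were chosen after seeing the data. Sequences are from RefSeq, GRCm38.p6.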

Additional observations from a re-analysis of the deposited data

How the results depend on the processing

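Counts of members called rose with a block. With the replicate number as a block they were 12 for any difference among days, 8 for the slope over P0 to P3, 11 for P4 against cap mesenchyme and 2 for P4 against P3, in place of 4, 4, 4 and 1. Of all genes 12.5%, 8.49%, 12.1% and 3.55% were called in these fits. With the set of replicates as a block the counts were 13, 7, 11 and 2 (11.7% of all genes for any difference). The 13 were Cdkn1c, Grb10, Igf2r, Impact, Mest, Mkrn3, Ndn, Nnat, Peg10, Peg3, Plagl1, Slc38a4 and Zim1. With Zim1 and Mkrn3 set aside, the counts with the set of replicates as a block were 11, 6, 9 and 2 of 21. With the replicate number as a block, Zim1 and Mkrn3 were among those called for any difference and at P4, and Zim1 in the slope. Samples of different days share only a number, and 11 of 15 samples correlated best with one of their own number. The difference between the sets of replicates can add to this. Any difference among days gave 7 after quantile normalization, and P4 against P3 gave 0 by limma when only those days were fitted (with all days and no block 3 members had an unadjusted p under 0.05). Leaving out each sample gave 3 to 5 members for any difference, 3 to 5 for the slope, 1 to 5 for P4 against cap mesenchyme and 1 to 1 for P4 against P3, and the count of 1 (Mest) came without P4 replicate 2 or replicate 3.

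Paternal minus maternal medians ran from -0.0775 to 0.0924 in the slope and from -0.41 to -0.18 at P4 when each sample was left out, the slope turning positive without P3 replicate 1 and the P4 value growing to -0.41 without P4 replicate 2 and -0.35 without P4 replicate 3. The slope difference was 0.10 without the members listed as imprinted only in some tissues or stages (of those tested, Kcnq1, Osbpl5 and Ppp1r9a). The P4 difference was -0.39 with a filter on the mean, which left out Zim1, Mkrn3 and Rian. The sign of Dlk1 was not settled: at P4 it was 0.093 within replicates 2 and 3 and -0.167 to 0.0946 with each sample left out, and its slope was -0.0379 to 0.0434. The adjusted p of Peg3 in the slope was 0.0546 when only P0 to P3 were fitted, and that of Igf2r at P4 was 0.0509 to 0.0616 with median centring, with no filter, or with trend and robust settings. Values of called members and of Igf2, Cdkn1c, Dlk1 and Meg3 were followed under all alternatives. Of these, 385 stayed on their side of the threshold or, in the first replicates alone, within the spread. A call was lost in 27 and gained in 5, and 12 changed sign (all of these Dlk1). In the first replicates alone 3 moved by more than the spread. For P4 against P0 to P3, the alternative of only the days compared repeated the main fit and could not change. As each member had 1 probe set, the mean of probe sets left its differences as they were. Among the other members not called, Kcnq1, Osbpl5 and Rian in the slope and Nnat and Rian at P4 also changed sign when some samples were left out. The cause of these changes was not tested. Zim1, Rian, Mkrn3, Kcnq1 and Sgce lay near or under the filter value in many arrays, where small differences may not be measurable.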
